A study of Mus musculus with 12 samples.

Results

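Expression in restored hippocampal neural progenitor cells (NPCs), which carried nestin-Cre and 1 Kmt2a allele with a removable stop (Nes-Cre+/- Kmt2a+/LSL), was compared with that in NPCs with nestin-Cre and 2 unmodified Kmt2a alleles (Nes-Cre+/-). The members were the 3 libraries of each of these genotypes, 6 of the 12 libraries of the series, chosen by their genotype labels (nes-cre+/-Kmt2a+/LSL and nes-cre+/-). The other 6 libraries were from Kmt2a+/LSL and Kmt2a+/+ NPCs, both without nestin-Cre, and were used only for reference values. All NPCs were grown from the dissociated hippocampus of P0 pups on a C57BL/6J background, in medium with FGF-2 and EGF, without a drug or other treatment. The LSL cassette, a loxP-flanked transcriptional stop, lay in intron 1 of a single Kmt2a allele, and all mice with it came from 1 founder line. The nestin-Cre transgene is expressed from a neural progenitor enhancer and acts in the developing nervous system in mid to late gestation, so the allele was blocked before that stage. Both genotypes compared here carried the transgene, so its presence was the same on both sides of each difference. The labels give neither litter nor sex, and the p-values therefore measure the spread between 3 cultures of each genotype.

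KMT2A (MLL1) is a histone methyltransferase that places H3K4 methylation at gene starts. It works in a complex with WDR5, RBBP5, ASH2L and DPY30, and its CXXC domain binds unmethylated CpG sites. Loss of 1 copy causes Wiedemann-Steiner syndrome in humans. In the developing hippocampus, NPCs are the source of granule neurons and of glia.

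Kmt2a itself was at nearly the same level in restored and control NPCs, and none of the 16137 genes tested differed between them at an adjusted p under 0.05 (edgeR quasi-likelihood F-test, Benjamini-Hochberg adjustment). Grb10, Dmrt3 and En2, 3 genes with lower mean levels in Kmt2a+/LSL than in Kmt2a+/+ NPCs, also lay at the control level after restoration. The genes with the smallest p-values included Ccnk, Grin3a and Wls, which were higher in restored NPCs, and Celsr3, Gdpd2 and Socs3, which were lower. In the gene lists examined, members for neural progenitors, Notch signalling and astrocytes were mostly lower, and members for the cell cycle, ribosomal proteins and mitochondrial transcripts mostly higher, but several of these list medians rested on 1 library.

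Kmt2a (GRCm38 chr9:44803355-44881296, minus strand) had 6777, 7427 and 7167 normalized counts in control replicates 1, 2 and 3, and 6535, 6814 and 6205 in restored replicates 1, 2 and 3. Normalized counts are the deposited counts divided by the TMM-scaled library size of each of the 12 libraries. The means were 7124 ± 327 and 6518 ± 305 (SD, n = 3 each), and the ranges overlapped. The log2 fold change, restored over control, was -0.13 ± 0.11 (SE), with a 95% interval of -0.37 to 0.11, and the exact two-sided permutation test gave p = 0.2. With 3 libraries against 3, this test cannot give a p under 0.1. In Kmt2a+/LSL NPCs without Cre, the same gene had 3972, 3980 and 3991 normalized counts, below all 6 libraries with nestin-Cre. Counts are summed per gene, and the RNA of the LSL allele was not measured apart from that of the other allele.

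The promoter windows of Kmt2a, of Grb10 and of Celsr3 are shown because the first is the restored gene, the second the gene with the smallest p-value in Kmt2a+/LSL against Kmt2a+/+ NPCs, and the third the protein-coding gene with the smallest p-value among the lower genes with a mean of at least 50 counts. Each runs from 250 bases before to 50 after the first listed gene start, 5′ to 3′ on the gene's strand (RefSeq, GRCm38.p6), and capitals mark CpG dinucleotides, the letters CG, which read the same on both strands.
Kmt2a, chr9:44881240-44881539, minus strand: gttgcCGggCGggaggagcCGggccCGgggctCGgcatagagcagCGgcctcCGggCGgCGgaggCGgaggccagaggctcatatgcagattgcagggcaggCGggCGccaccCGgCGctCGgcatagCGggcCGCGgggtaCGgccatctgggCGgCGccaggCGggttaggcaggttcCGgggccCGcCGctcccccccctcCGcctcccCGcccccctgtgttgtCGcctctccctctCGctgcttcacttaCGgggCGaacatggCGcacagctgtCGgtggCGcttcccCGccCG
Grb10, chr11:12037371-12037670, minus strand: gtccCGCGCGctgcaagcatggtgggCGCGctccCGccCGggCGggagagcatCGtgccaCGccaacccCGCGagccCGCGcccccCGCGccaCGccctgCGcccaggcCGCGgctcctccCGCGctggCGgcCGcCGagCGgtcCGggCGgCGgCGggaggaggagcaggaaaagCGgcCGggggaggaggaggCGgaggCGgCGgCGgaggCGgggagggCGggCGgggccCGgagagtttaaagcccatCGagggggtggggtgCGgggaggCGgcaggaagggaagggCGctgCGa
Celsr3, chr9:108825795-108826094, plus strand: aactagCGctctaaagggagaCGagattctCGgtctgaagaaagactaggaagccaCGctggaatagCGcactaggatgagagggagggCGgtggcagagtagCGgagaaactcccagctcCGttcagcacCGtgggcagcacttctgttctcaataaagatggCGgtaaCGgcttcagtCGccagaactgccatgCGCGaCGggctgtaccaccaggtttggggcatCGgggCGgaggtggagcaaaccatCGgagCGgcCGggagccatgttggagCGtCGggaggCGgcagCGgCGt
These windows held 36, 45 and 25 CpG dinucleotides. Over the 27025 genes with a window the median was 7, and 94.2% of windows held at least 1. Over the 11864 tested genes that matched a window by symbol, the median was 20, and 76.9% of them had 10 or more. Of the 24 leading genes described later, 14 matched a window, with a median of 19 and a range of 1 to 31, and 85.7% had 10 or more. The CpG content of the leading genes was thus near that of all tested genes.

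Grb10, Dmrt3 and En2 were at or near the control level in restored NPCs. Grb10, an imprinted adaptor that dampens insulin and IGF signalling, had 4491, 4784 and 5373 normalized counts in the controls and 4617, 4240 and 4964 in restored NPCs. Its ranges overlapped, with a log2 fold change of -0.08 ± 0.12 (SE) and an exact permutation p of 0.5. In Kmt2a+/LSL NPCs Grb10 had 1882, 2049 and 1522, under every library with nestin-Cre. Dmrt3, a transcription factor of the dorsal telencephalon, had 273, 349 and 354 normalized counts in the controls and 264, 330 and 347 in restored NPCs. The groups covered nearly the same range, and the log2 fold change was -0.05 ± 0.18. En2, a homeobox factor of the midbrain and hindbrain, had 80.8, 52.2 and 69.5 against 46.5, 87.9 and 64.4, with a log2 fold change of -0.02 ± 0.32. The intervals of Dmrt3 (-0.46 to 0.36) and En2 (-0.76 to 0.71) still allow sizeable differences in either direction.

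Nek7 and Sox5 lay higher in restored NPCs. Nek7, a mitotic kinase that also acts in the NLRP3 inflammasome, had 531, 672 and 554 normalized counts in the controls and 920, 613 and 744 in restored NPCs, with overlapping ranges. Its log2 fold change was 0.37 ± 0.18 (SE, unadjusted p = 0.0734, adjusted p = 0.9997 in edgeR). Without nestin-Cre, Nek7 had 201, 193 and 180 in Kmt2a+/+ and 414, 449 and 502 in Kmt2a+/LSL NPCs, so the controls with nestin-Cre lay above all libraries without it. Sox5, a SOX factor that times the production of neurons, had 3451, 3320 and 3380 in the controls and 4145, 3904 and 3893 in restored NPCs. Its groups did not overlap, and its log2 fold change was 0.23 ± 0.10 (unadjusted p = 0.0481, adjusted p = 0.9997 in edgeR).

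**Figure D1:**
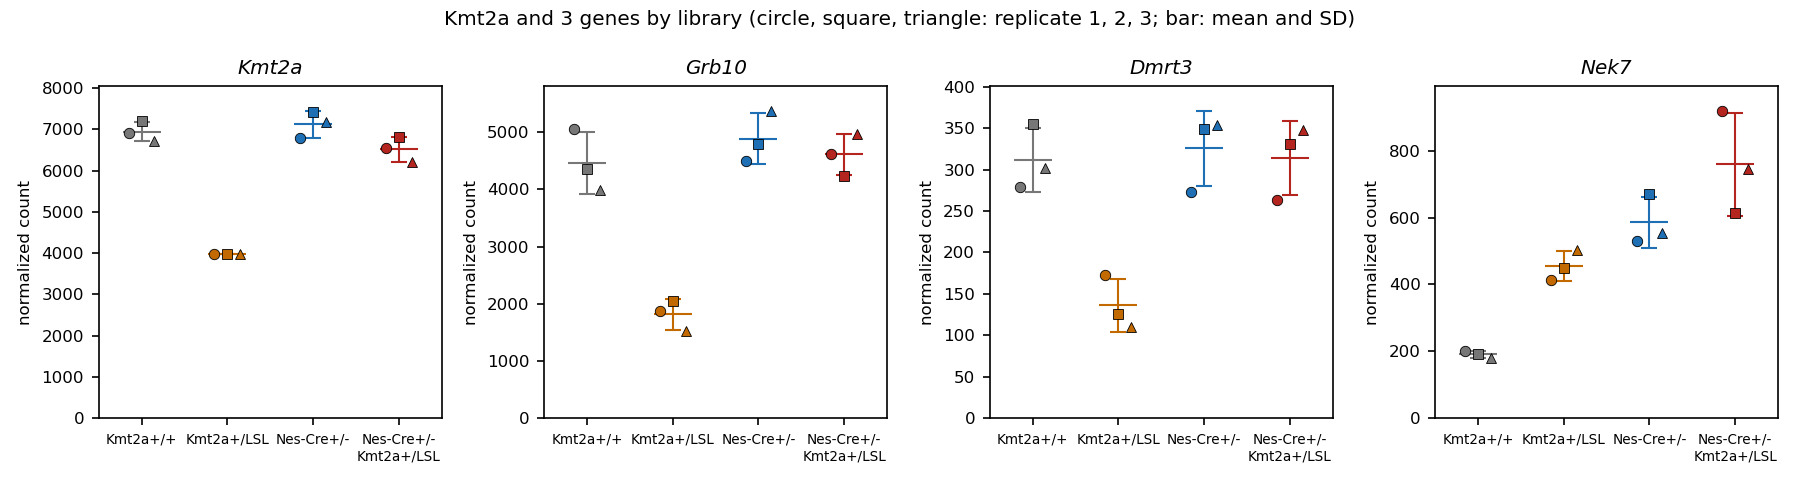
Normalized counts of Kmt2a, Grb10, Dmrt3 and Nek7 in each library of the 4 genotypes, with replicates 1, 2 and 3 as circle, square and triangle and the mean with its SD as bars (n = 3). Kmt2a, Grb10 and Dmrt3 of restored NPCs overlap the Nes-Cre+/- controls, and Nek7 is higher in all libraries with nestin-Cre than in those without it.

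Over the whole transcriptome, 0 of 16137 genes (0%) were called by edgeR's quasi-likelihood F-test, where the smallest adjusted p was 0.16. The unadjusted p was under 0.05 for 369 genes, 2.29% of those tested, where uniform p-values would give 807. Of these, 173 were higher in restored NPCs (1.07% of those tested) and 196 lower (1.21%). Restored and control libraries were fully separate in 1066 genes (6.61%), 499 of them higher (3.09%) and 567 lower (3.51%). The count by other tools ranged from 0 with limma-voom, where 397 genes had an unadjusted p under 0.05, to 5 with the DESeq2 Wald test (0.031% of 16116) and 27 (0.167%) when the DESeq2 z-scores were rescaled to an empirical null. The precision bounds what could be missed. Among the 11665 genes with a mean of at least 50 counts, the median SE of the log2 fold change was 0.17, and 10611 (91%) had a 95% interval that lay within 1 log2 unit on either side of 0. The median absolute log2 fold change of these genes was 0.106, and 68 had one over 1.

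The leading genes are the 12 in each direction with the smallest p-values among genes with a mean of at least 50 counts. They describe the top of a list in which no gene passed the adjusted threshold in edgeR (adjusted p = 0.9997 for each of them), and in 23 of the 24 the libraries did not overlap. For a gene without overlap the exact permutation p was 0.1, the smallest possible. With the empirical null, which sets the spread of p-values from the genes themselves, 14 of the 24 leading genes were among the 27 called, and Camkv, Zfp869, Zfp433, Gm5537 and mt-Nd4l, described later, were too. Among the 14 were Ccnk, Grin3a, Wls, Gm2000, Ndufc1, Hnrnpc, Sall3 and Gm20594, which were higher, and Celsr3, Gdpd2, Tcirg1, Gm28035 and Socs3, which were lower. Of the 27, 11 had a mean under 50 counts.

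Among the higher genes, Ccnk, which encodes the cyclin K partner of CDK12 and CDK13 in transcription elongation, had the largest difference after Gm2000. It had 43.8, 35.9 and 54.2 normalized counts in the controls and 311, 188 and 105 in restored NPCs. The log2 fold change was 2.17 ± 0.40 (SE), and leaving out each library in turn gave 1.71 to 2.48. Kmt2a+/+ and Kmt2a+/LSL NPCs had 54.5 to 191 normalized counts of Ccnk, so that the nestin-Cre controls were the low group. Ccnk was the single leading gene that the DESeq2 Wald test called (adjusted p = 0.000526). Grin3a, which encodes an NMDA receptor subunit, had 616, 530 and 423 in the controls and 891, 912 and 742 in restored NPCs. Its log2 fold change was 0.70 ± 0.17, and the restored libraries lay close to Kmt2a+/+ and Kmt2a+/LSL NPCs (734 to 1006), and the nestin-Cre controls were again the low group. Wls, the carrier that brings Wnt proteins to the cell surface, had 1477, 1738 and 1733 against 2955, 2060 and 2498, with a log2 fold change of 0.60 ± 0.15. Sall3, a zinc finger transcription factor, was the most abundant of the 12, with 6194, 5483 and 5312 against 7484, 6990 and 7540. Its difference was small and even, at 0.37 ± 0.11.

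The matrix and adhesion genes Adamts5 and Itga4 and the lipase gene Lpl were also higher in each restored library. Adamts5, an aggrecan-cleaving protease, had 73.0, 90.1 and 87.6 normalized counts in the controls and 129, 179 and 125 in restored NPCs (log2 fold change 0.78 ± 0.24). Itga4, an integrin subunit for fibronectin and VCAM1, had 319, 335 and 257 against 567, 436 and 400 (0.62 ± 0.19). Lpl, which splits triglycerides of lipoproteins, had 221, 222 and 237 against 427, 311 and 304 (0.61 ± 0.18). In all 3 genes the lowest restored library lay above the highest control.

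A different pattern was shared by 3 of the other higher genes, with restored replicates 1 and 3 far above and replicate 2 near the controls. Ndufc1, a subunit of respiratory complex I, had 868, 900 and 951 normalized counts in the controls and 1601, 1040 and 1659 in restored NPCs (0.66 ± 0.18). Gm20594, a short gene model that shared 10% of its 31-base words with mt-Rnr2, had 2302, 2714 and 2159 against 3743, 2754 and 4744 (0.65 ± 0.20). Gm2000, of whose words 90.4% were in Rpl35, had 17.5, 11.3 and 19.99 against 488, 11.7 and 416, and was the leading gene with overlapping libraries. Hnrnpc, an RNA-binding protein of nascent transcripts, had 562, 651 and 649 against 928, 783 and 1450, with the highest value in restored replicate 3 (0.76 ± 0.23).

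Among the lower genes, Celsr3, an atypical cadherin of planar cell polarity and axon guidance, had 132, 138 and 97.1 normalized counts in the controls and 46.5, 49.4 and 59.0 in restored NPCs. The log2 fold change was -1.25 ± 0.26 (SE), or 0.421 of the control mean, and it lay between -1.38 and -1.15 when each library was left out in turn. Without nestin-Cre, Celsr3 had 34.2 normalized counts in Kmt2a+/+ replicate 1 and 60.3 to 99.5 in the other 5 libraries, which lay above the restored libraries and in a range that held control replicate 3. Socs3, the feedback inhibitor of JAK-STAT signalling, had 141, 230 and 250 against 87.1, 113 and 123, with a log2 fold change of -0.94 ± 0.27. Control replicate 1 was the lowest control and still above the restored libraries. Gdpd2, a glycerophosphodiester phosphodiesterase, had 1510, 1916 and 2331 against 1208, 1319 and 1264 (-0.60 ± 0.16). Tcirg1, a proton pump subunit of lysosomes, had 1402, 1889 and 1978 against 1201, 1202 and 1251 (-0.53 ± 0.15). In both the restored libraries were tightly grouped, and the spread lay among the controls.

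Lars2, Ampd2 and Ccdc157 showed small differences with little spread. Lars2, the mitochondrial leucyl-tRNA synthetase, had 2271, 2143 and 2456 normalized counts in the controls and 1744, 1804 and 1819 in restored NPCs (-0.36 ± 0.10). Ampd2, an AMP deaminase, had 1497, 1450 and 1499 against 1066, 1239 and 1128 (-0.37 ± 0.11). Ccdc157, a coiled-coil protein, had 1130, 1372 and 1372 against 878, 1065 and 835 (-0.48 ± 0.14). Cyb561a3, a lysosomal cytochrome b561, was of low abundance, with 136, 77.9 and 98.0 against 37, 62.8 and 42.6 (-1.13 ± 0.32), and shared 16.5% of its words with other genes, mostly Tkfc.

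The 4 steepest differences among the lower genes were in genes listed at or near 0 in restored libraries or in genes with shared sequence. Ints9, a subunit of the Integrator complex that cleaves small nuclear RNAs, had 664, 562 and 600 normalized counts in the controls and 0, 84.4 and 0 in restored NPCs, while 0.472% of its words were in another gene. In Kmt2a+/+ NPCs Ints9 had 631, 162 and 738, and in Kmt2a+/LSL NPCs 576, 636 and 33.0, so low values also occurred without nestin-Cre. The processed pseudogenes Gm10359 and Gm12671 had identical counts, 962, 341 and 808 against 0, 39.5 and 0, and 100% of their words were in Gapdh. Gapdh had 30166, 35548 and 32388 in the controls and 31447, 35524 and 33305 in restored NPCs, with a log2 fold change of 0.03 ± 0.12. Gm28035, a gene model that spans Lrrc8a and shared 94.9% of its words with other genes, had 476, 501 and 440 against 118, 299 and 79.7 (-1.51 ± 0.42), while Lrrc8a had 1491, 1820 and 1894 against 1601, 1826 and 2130 (0.09 ± 0.15). Reads that fit several of these genes are divided between them by the estimate, and the values of Gm10359, Gm12671, Gm28035 and Gm2000 are uncertain for that reason. Of the 24 leading genes, these 4 shared at least 50% of their words with another gene.

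**Figure D2:**
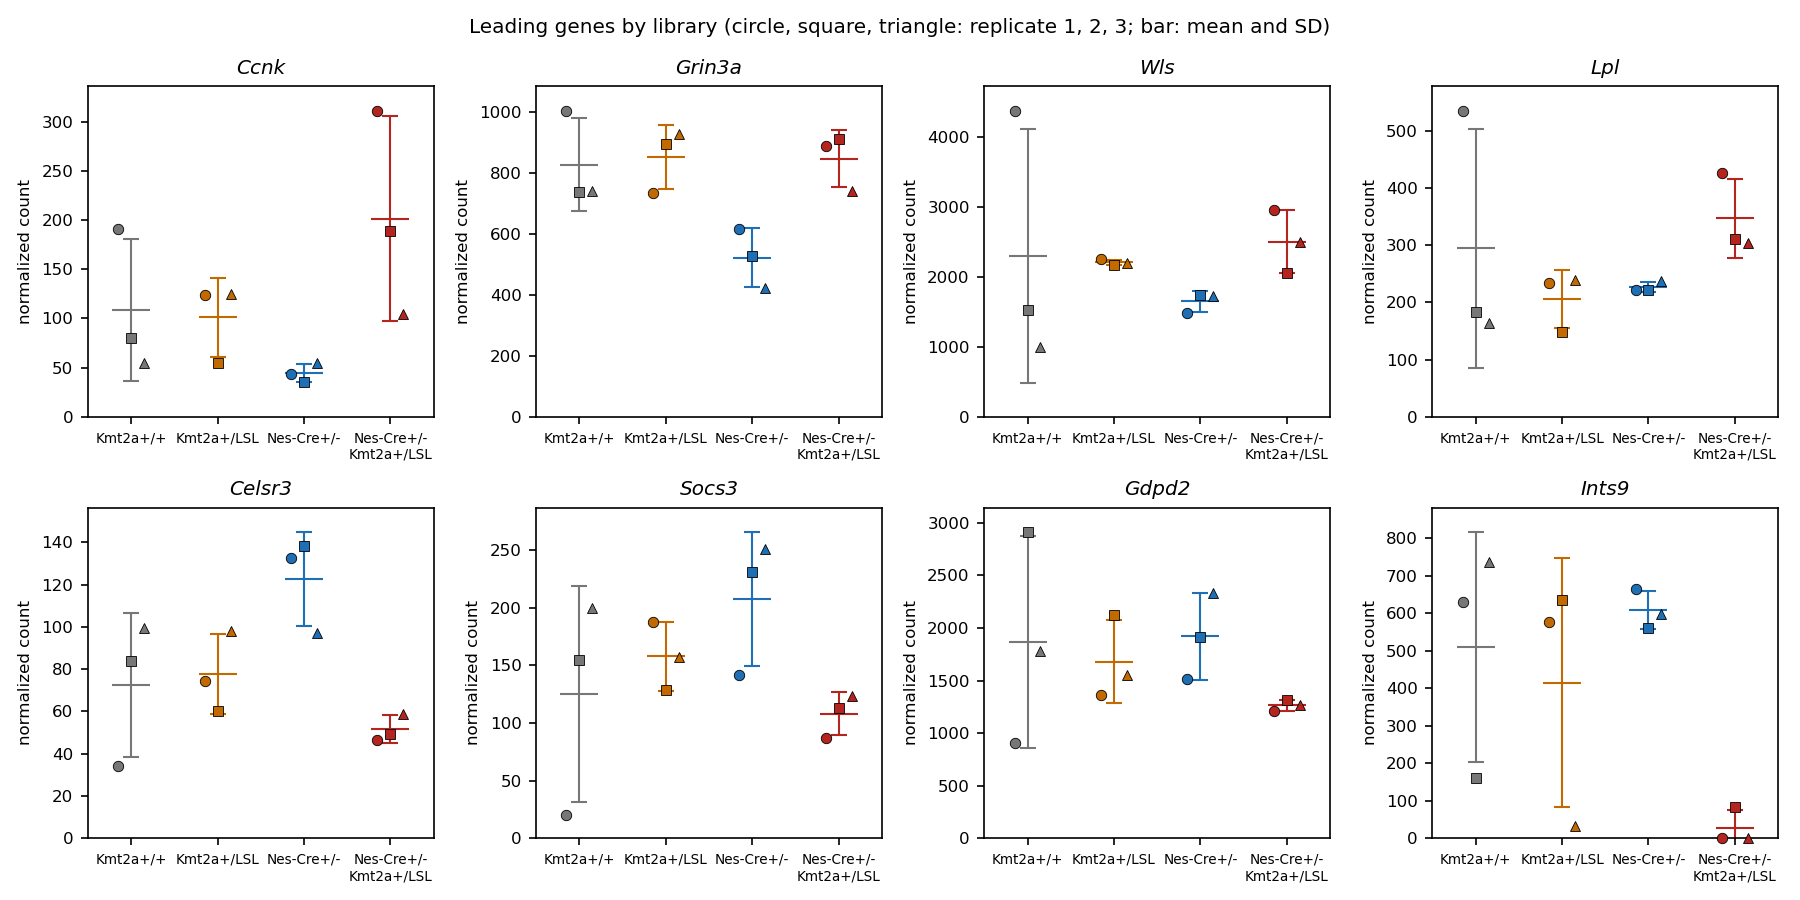
Normalized counts of 8 leading genes in each library of the 4 genotypes, with replicates 1, 2 and 3 as circle, square and triangle and the mean with its SD as bars (n = 3; a bar that would pass below 0 is drawn to 0). Ccnk, Grin3a, Wls and Lpl are higher, and Celsr3, Socs3, Gdpd2 and Ints9 lower, in each restored library than in each Nes-Cre+/- control.

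Apart from Ccnk, the genes called by the DESeq2 Wald test had few counts, and they were named after their values were seen. Camkv, a vesicle-associated pseudokinase of neurons, had 0 counts in each control and 27, 18 and 19 raw counts in restored replicates 1, 2 and 3. Zfp869, a zinc finger gene, had 0, 3 and 0 against 111, 57 and 29. Zfp433, another zinc finger gene, had 51, 40 and 57 against 0, 0 and 0, and 87.1% of its words were in other genes. Gm5537, a processed pseudogene whose words were all (100%) in Pgk1, had 62, 50 and 127 against 0, 1 and 0. The DESeq2 adjusted p-values were 0.00213, 3.29e-05, 9.73e-06 and 1.92e-05 in the order named, and the edgeR adjusted p-values of Zfp433 and Gm5537, the lowest in that fit, were 0.1731 and 0.16. Outside these libraries the same genes varied too, for Camkv from 0 to 19 raw counts in Kmt2a+/+ NPCs and 0 to 20 in Kmt2a+/LSL NPCs.

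Some libraries stood apart from others of their genotype. Library totals lay between 20448957 and 26169282 counts, so 3 counts stood for 0.115 to 0.147 CPM (counts scaled to the library total), a floor that covers counting error only. The median correlation with libraries of the same genotype was 0.98 to 0.982 for the controls and 0.963 to 0.97 for restored NPCs. Restored replicate 1 stood apart by GC content. In 10 bins of genes by GC content, for genes with a mean of at least 50 counts, its median deviation from the mean of the 6 libraries was 0.363 log2 units in the bin with the lowest GC content and -0.419 in the bin with the highest, while the other 5 lay between -0.133 and -0.017 and between 0.065 and 0.159. The median log2 fold change was 0.09 in the lowest bin and -0.11 in the highest, each with 1161 genes. For the shortest transcripts, 1 of 10 bins by length, restored replicate 1 lay at -0.175 and restored replicate 3 at 0.178, and the other 4 libraries between -0.013 and 0.011. With an offset for GC content, chosen after seeing the data, edgeR again called 0 genes, and 470 had an unadjusted p under 0.05. Transcripts of the Y-linked genes Ddx3y, Eif2s3y, Kdm5d and Uty were present in control replicate 3 and in restored replicates 1 and 2, and far lower in control replicates 1 and 2 and restored replicate 3, where Kdm5d had 18.5, 33.8 and 22.9 normalized counts and the other 3 genes at most 6.55. Ddx3y had 0, 0 and 1221 normalized counts in the controls and 1427, 1150 and 0 in restored NPCs. The part of GC content, transcript length and the uneven Y-linked RNA in the differences above was not tested further.

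**Figure D3:**
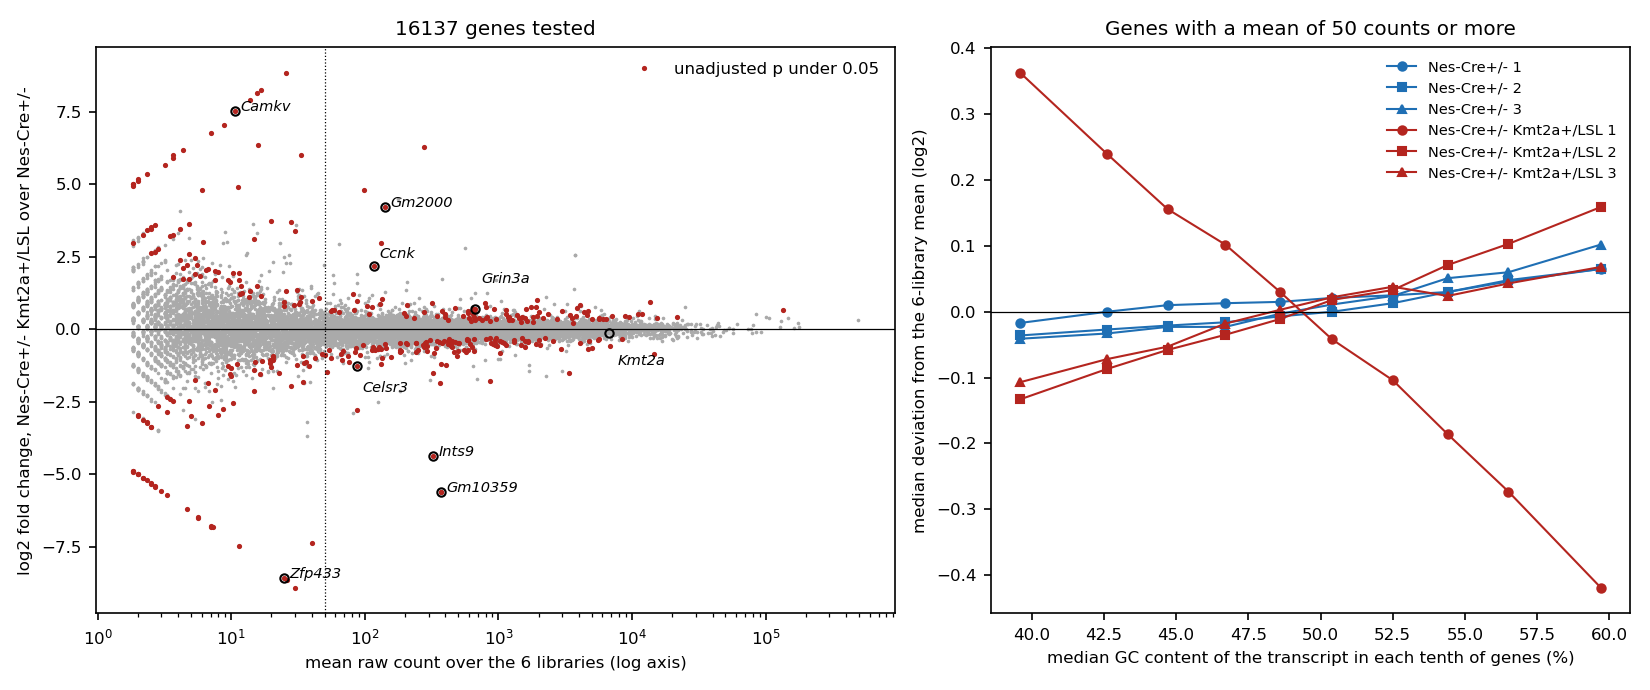
Left, the log2 fold change of each of the 16137 tested genes against its mean raw count (log axis), with unadjusted p under 0.05 in red and a dotted line at 50 counts. Right, the median deviation of each library from the mean of the 6 libraries over 10 bins of genes by GC content, where restored replicate 1 runs from 0.363 to -0.419 and the other 5 libraries stay between -0.133 and 0.159.

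Genes of the H3K4 methylation machinery were near the control level. Of 20 methyltransferase and COMPASS genes, 0 had an unadjusted p under 0.05 (background 2.29%), 7 were above and 13 below 0 (50.6% of all genes tested were above), and the median log2 fold change was -0.04, against 0.00 over all genes tested. Kmt2b, the closest paralog, had 2660, 2472 and 2623 normalized counts in the controls and 1933, 2751 and 2142 in restored NPCs (-0.19 ± 0.14). Kmt2c and Kmt2d, the enhancer methyltransferases, had log2 fold changes of 0.02 ± 0.12 and 0.09 ± 0.22. The core subunits Ash2l and Rbbp5 had 0.02 ± 0.10 and 0.06 ± 0.20. Pagr1a, a subunit of the KMT2C and KMT2D complexes, had the smallest p of the list at -0.61 ± 0.29, and 93.2% of its words were in Gm42742. Of 8 H3K4 demethylase and CoREST genes, 0 had an unadjusted p under 0.05 (background 2.29%), and Rcor2 had the smallest p (-0.40 ± 0.26), with its lowest value, 978, in restored replicate 1.

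HOX genes and their cofactors, the best known KMT2A targets in blood, were mostly silent in these NPCs. Of 26 HOX, MEIS and PBX genes, 16 were in the table and 10 were tested, with 0 at an unadjusted p under 0.05 (background 2.29%) and a median of -0.12. Meis3 had 482, 494 and 565 normalized counts in the controls and 258, 430 and 426 in restored NPCs, without overlap (-0.47 ± 0.21). Meis2 had 1213, 1694 and 1670 against 914, 1122 and 1428, with overlap (-0.40 ± 0.20).

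All libraries had the RNA of neural progenitors. Sox2, the progenitor transcription factor, had 5570 to 9281 normalized counts, Fabp7, a radial glial lipid carrier, 58218 to 118140, and Nes, the intermediate filament nestin, 8504 to 18156. Of the 28 neural stem and progenitor markers, 21 lay below 0 and 7 above, with a median log2 fold change of -0.16 (-0.23 to -0.09 as each library was left out). Of these, 3 had an unadjusted p under 0.05, all lower, against a background of 1.21% for lower genes. Msi1, an RNA-binding protein of neural stem cells, had 2020, 2286 and 2483 against 1185, 1789 and 1788, without overlap (-0.51 ± 0.17). Notch2 had 4431, 5633 and 6221 against 3823, 3992 and 4655 (-0.39 ± 0.15), and Fgfr3, a receptor for FGFs, had 5845, 9151 and 9570 against 4054, 5757 and 6697 (-0.57 ± 0.23). In both of these, control replicate 1 lay inside the range of the restored libraries. Egfr went the other way, with 25073, 25160 and 24004 against 29658, 27182 and 27919 and no overlap (0.19 ± 0.11).

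Genes of the Notch pathway, which keeps progenitors undifferentiated, were mostly below 0 too, and 4 of them (Notch1, Notch2, Hes1 and Hes5) are also progenitor markers counted above. Of 25 genes, 20 lay below 0 and 5 above, with a median of -0.18, 2 at an unadjusted p under 0.05, both lower (background 1.21%), and 0 without overlap (background 6.61%). Notch3 had 3801, 5016 and 5394 normalized counts in the controls and 2678, 3337 and 4302 in restored NPCs (-0.46 ± 0.20). The ligand gene Dll1 had -0.36 ± 0.19, the ligand gene Jag1 0.36 ± 0.19, and the target gene Hes5 -0.31 ± 0.33. Without restored replicate 1, the library with low values for genes of high GC content, the list median was -0.03. With the offset for GC content and all 6 libraries, the list median was -0.095. Genes related to the growth factors of the culture medium lay mostly above 0, but the FGF receptor genes did not. Of 28 FGF, EGF and ERK feedback genes, 21 lay above 0 and 7 below, with a median of 0.16 (0.11 to 0.29 as each library was left out). Fgfr3, which was lower, was the single member with an unadjusted p under 0.05 (background 2.29%). Fgfr1 and Fgfr2 also lay below 0 (-0.17 ± 0.12 and -0.14 ± 0.14). Fgf14 had 155, 150 and 148 against 253, 177 and 190, without overlap (0.45 ± 0.20).

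Regional patterning genes were mostly below 0. Of 24 dorsal telencephalic genes, 18 lay below 0, with a median of -0.11, or -0.06 without restored replicate 1. Nfia, a nuclear factor I gene of gliogenesis, had 4639, 5441 and 4928 against 6676, 5510 and 7374 without overlap (0.38 ± 0.14), and Nr2f1, a patterning receptor of the cortex, had 5245, 6853 and 6759 against 4166, 5546 and 4862 (-0.37 ± 0.15). Of 13 midbrain and hindbrain genes, 12 lay below 0, with a median of -0.21. At an unadjusted p under 0.05 there was 1 member, lower (background 1.21%), and 3 members were lower without overlap (background 3.51%). Most of them were scarce. Irx1 had 104, 75.8 and 114 against 39.4, 37.7 and 77.6 (-0.93 ± 0.35), and Otx1, the most abundant, 715, 782 and 769 against 659, 701 and 595 (-0.21 ± 0.13). The list median ranged from -0.57 to -0.07 as each library was left out. Of 12 ventral telencephalic genes, 8 lay below 0, with a median of -0.21 (-0.31 to -0.07 as each library was left out).

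Astrocyte genes were lower in restored NPCs by the median, and Aqp4 and Gfap differed mainly through control replicates 2 and 3. Of 19 genes, 16 lay below 0, with a median of -0.18 (-0.34 to -0.11 as each library was left out). Aqp4, the astrocyte water channel, had 335, 1627 and 2036 normalized counts in the controls and 431, 341 and 396 in restored NPCs (-1.77 ± 0.54, unadjusted p = 0.0105 in edgeR). Gfap, the astrocyte filament, had 1128, 7503 and 6433 against 2101, 1260 and 1993 (-1.49 ± 0.58). Sparc, counted among the matrix genes and made by astrocytes too, had 10195, 18887 and 27530 against 10208, 9319 and 11595 (-0.86 ± 0.31). In these 3 genes control replicate 1 was at the level of the restored libraries, and the other 2 controls were far above. Without control replicate 1 the log2 fold change of Aqp4 was -2.23, with an edgeR adjusted p of 0.0768. S100b, a calcium-binding protein of astrocytes, went the other way, with 726, 772 and 641 against 1007, 947 and 874 and no overlap (0.40 ± 0.13). The summed level of the list was 6270, 9662 and 9822 CPM in the controls and 6224, 7600 and 8272 CPM in restored NPCs. For summed levels, here and below, CPM was scaled to the TMM-scaled library size in place of the library total. In bulk RNA, fewer cells of a type and less RNA per cell cannot be told apart.

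**Figure D4:**
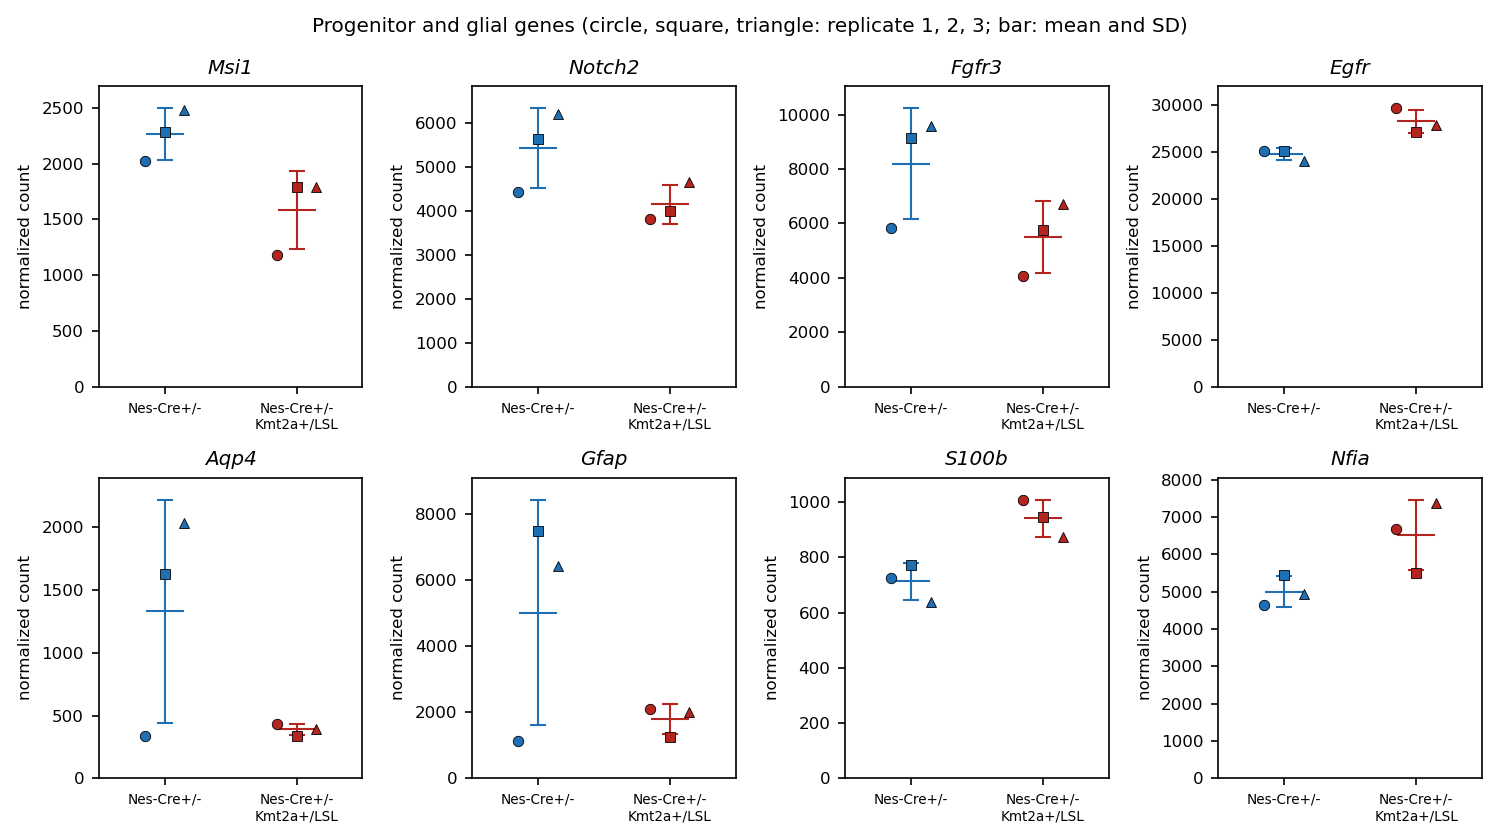
Normalized counts of progenitor and glial genes in the 3 Nes-Cre+/- and the 3 restored libraries, with replicates 1, 2 and 3 as circle, square and triangle and the mean with its SD as bars (n = 3). Aqp4 and Gfap are low in control replicate 1 and in all restored libraries, while Msi1, Egfr, S100b and Nfia do not overlap between the genotypes.

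Lists of markers of other cell types had median log2 fold changes between -0.05 and 0.17. Of 18 oligodendrocyte lineage genes, 0 had an unadjusted p under 0.05 (background 2.29%), and the median of -0.05 turned to 0.07 without restored replicate 1. Olig1 and Olig2, members of this list, were abundant, with 61449 to 94516 and 16594 to 26245 normalized counts (0.01 ± 0.18 and -0.02 ± 0.18). Sox10 had 174, 81.9 and 134 against 42.9, 76.3 and 108 (-0.78 ± 0.40). Of 24 genes of neuronal differentiation, 15 lay above 0, with a median of 0.08, and Sox5, described above, had the smallest p. Rbfox3, the mature neuron marker NeuN, had 36 to 60 normalized counts in each library. Microglial genes were at the floor, with Csf1r, Aif1 and Tmem119 between 0 and 5.46, and of 23 such genes 17 had counts listed and 14 were tested. Siglec1, the member with the smallest p, had raw counts of 0, 0 and 0 against 6, 4 and 2. Of 18 vascular and fibroblast genes, 0 had an unadjusted p under 0.05 (background 2.29%), and the median was 0.17 but ranged from -0.10 to 0.23 as each library was left out. The endothelial marker Cdh5 was between 0 and 0.897, and Pecam1 had 21.4, 9.22 and 23.8 against 9.54, 17.1 and 41.5. Of 12 ependymal genes, 6 lay above 0 and 6 below, and 3 did not overlap (25%, background 6.61%). Tekt1, a structural protein of cilia and the member with the smallest p, had 18.5, 23.6 and 27.6 against 7.16, 10.8 and 14.2 (-1.104 ± 0.44). Dynlrb2, a dynein light chain, was higher, with 37, 30.7 and 34.3 against 52.5, 37.7 and 40.4 (0.35 ± 0.30). Foxj1, the factor of motile cilia, had 478, 463 and 562 against 321, 436 and 436 without overlap (-0.33 ± 0.17).

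Proliferation genes leaned higher, with 0 members at an unadjusted p under 0.05 (background 2.29%) and 0 without overlap (background 6.61%). Of 22 S phase genes, 20 lay above 0, with a median of 0.15, and of 24 mitosis genes 19 did, with a median of 0.09 (-0.06 to 0.29 as each library was left out). Mcm5, a subunit of the replicative helicase, had 243, 179 and 163 normalized counts in the controls and 259, 191 and 431 in restored NPCs (0.59 ± 0.31). Mki67, the proliferation marker Ki-67, had 13303, 10646 and 8192 against 13731, 10790 and 14316 (0.27 ± 0.20). The summed S phase level was 1640, 1116 and 901 CPM in the controls and 1487, 1123 and 1454 CPM in restored NPCs, so control replicate 1 was the highest of the 6 libraries. Without control replicate 1 the S phase median was 0.43, and over the libraries left out in turn it ranged from -0.04 to 0.43.

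The list medians of ribosomal and mitochondrial transcripts were above 0, and each rested on 1 library. Of 84 cytosolic ribosomal protein genes, 76 lay above 0, with a median of 0.22 and 5 at an unadjusted p under 0.05, all higher (background 1.07%). Their summed level was 39890 CPM in restored replicate 3 and 24140 to 26950 CPM in the other 5 libraries, and without restored replicate 3, the library that was high for short transcripts, the median was -0.07. All 13 protein-coding transcripts of the mitochondrial genome lay above 0, with a median of 0.42. Their summed level was 105200 CPM in restored replicate 1 and 56600 to 62350 CPM in the other 5, and without restored replicate 1 the median was 0.09. The transcript mt-Nd4l, for a subunit of respiratory complex I, had 9492, 10724 and 9063 normalized counts in the controls and 28123, 9465 and 18998 in restored NPCs, with overlap (0.95 ± 0.33), and 98.9% of its words were in Gm10222, so its value is uncertain. For mt-Atp6, a subunit of ATP synthase, the controls had 93774, 124590 and 105640 normalized counts and the restored libraries 248230, 130700 and 134520. The part of these 2 libraries' composition in other differences was not tested.

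Other pathways had medians between -0.12 and 0.15. The 38 Wnt genes had a median of -0.0033, with Wnt5b lower (206, 329 and 399 against 173, 162 and 238, -0.71 ± 0.27) and Wnt5a higher (4859, 4305 and 4253 against 5936, 6402 and 4689, 0.34 ± 0.14), each at an unadjusted p under 0.05. The 24 BMP and ID genes had a median of -0.12 (-0.27 to -0.02 as each library was left out), with Smad1 at 1502, 1548 and 1648 against 1285, 1464 and 1233 without overlap (-0.24 ± 0.12). The 14 hedgehog genes had a median of -0.10, which was 0.02 without restored replicate 1. The 41 axon guidance genes had a median of 0.01, and the 29 glutamate and GABA receptor genes 0.15, or 0.06 without restored replicate 1, with Grin3a as their single member at an unadjusted p under 0.05 (background 2.29%). Of 28 interferon and MHC class I genes, Irf9, a transcription factor of the interferon response, had 281, 328 and 376 against 253, 244 and 238 without overlap (-0.42 ± 0.17). Of 36 imprinted genes 22 lay above 0, with a median of 0.06 (-0.01 to 0.13 as each library was left out). The 23 clustered protocadherins had a median of -0.06 (-0.21 to -0.01 as each library was left out), with Pcdhb11 at 153, 190 and 148 against 119, 105 and 86.3 without overlap (-0.66 ± 0.22). Of 33 matrix genes, 21 lay below 0, with a median of -0.11 (-0.16 to -0.03 as each library was left out). Of 11 metallothionein and zinc transporter genes, 2 had an unadjusted p under 0.05 (background 2.29%), 1 in each direction. Slc30a10, a manganese exporter, had 422, 378 and 448 against 280, 273 and 366 without overlap (-0.44 ± 0.17). Mt1, a metal-binding metallothionein, had 7370, 8790 and 8731 against 11259, 8547 and 13363, with overlap (0.41 ± 0.17). The medians were 0.10 for 24 genes of lipid synthesis, 0.07 for 26 of glycolysis and hypoxia, 0.03 for 20 of CDK inhibition and p53, and -0.01 for both 22 of the unfolded protein response and 21 immediate early genes. Each of these 5 medians crossed 0 as 1 library or another was left out.

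**Figure D5:**
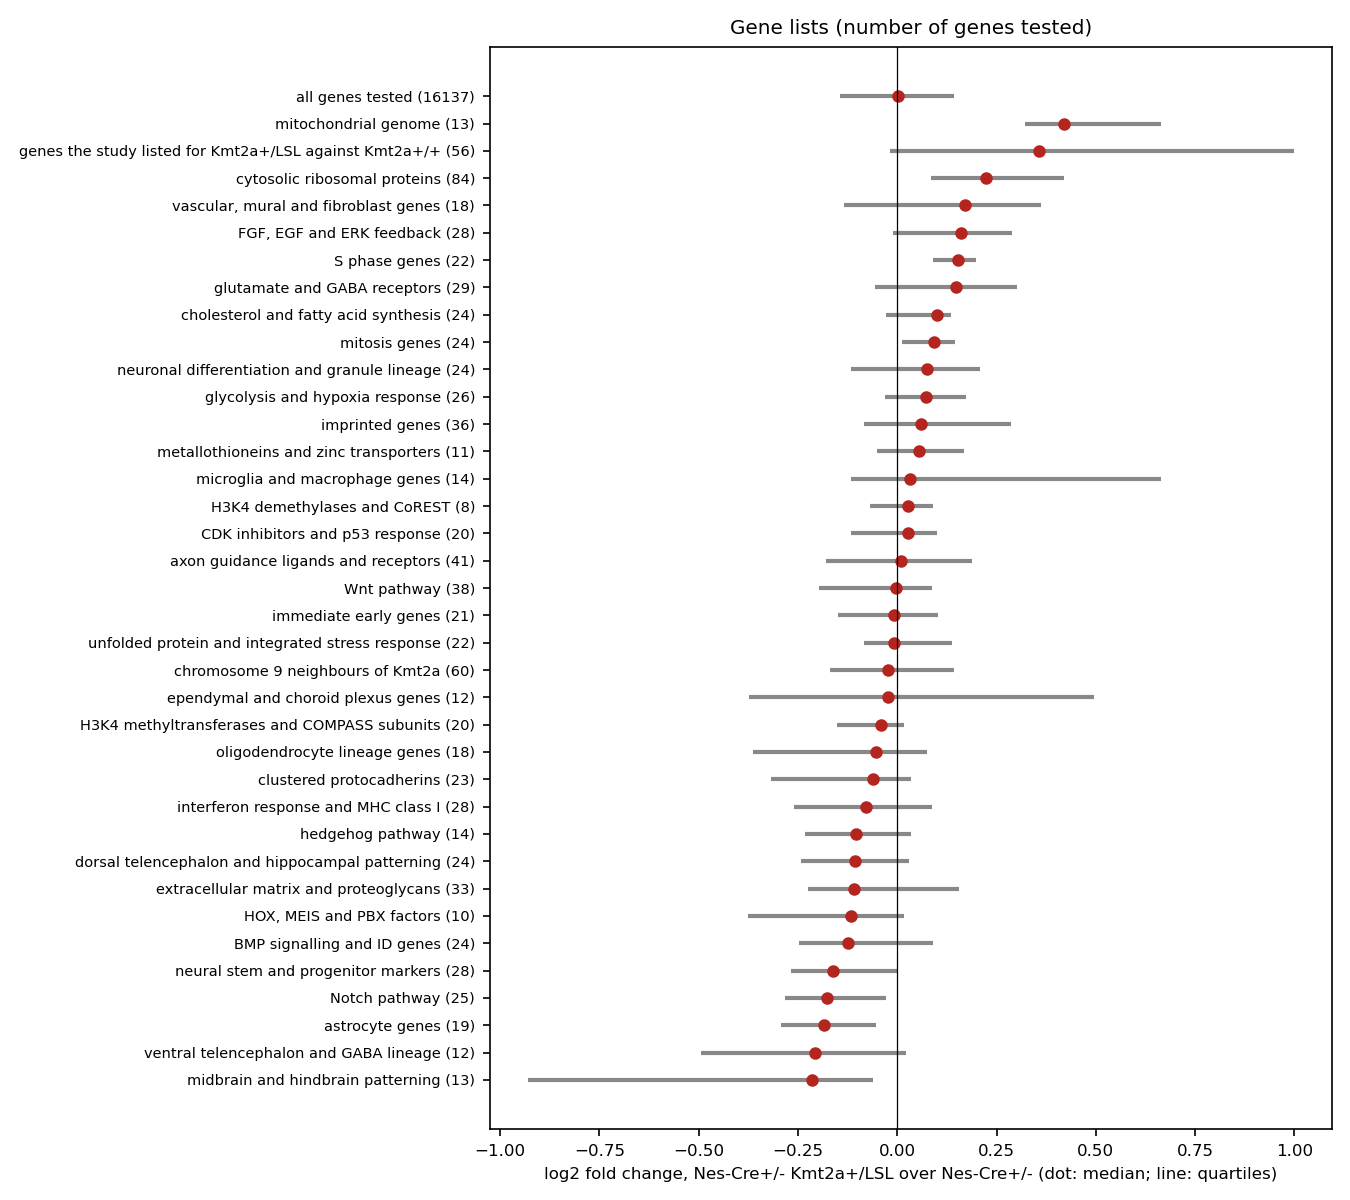
Median (dot) and quartiles (line) of the log2 fold change of restored over Nes-Cre+/- NPCs in each gene list except that of sex-linked genes, with the number of tested genes in brackets. The medians drawn run from -0.21 for midbrain and hindbrain patterning to 0.42 for the mitochondrial genome, and all tested genes have a median of 0.00.

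Genes beside the cassette lay on both sides of 0. Within 2 Mb of Kmt2a on chromosome 9, 171 genes were annotated, 70 were in the table and 60 were tested. Of these, 28 lay above 0 and 32 below, the median was -0.02, and 2 had an unadjusted p under 0.05, both higher (background 1.07%). In 4 neighbours the libraries did not overlap, all of them higher (background 3.09%). Cd3g, a T cell receptor subunit, had at most 6.55 normalized counts. Ddx6, an RNA helicase of P-bodies, had 3041, 3389 and 2514 against 5210, 3024 and 4258, with overlap (0.48 ± 0.21).

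The last question was whether the direction of the LSL effect without nestin-Cre was kept after restoration. This comparison shared no library with that of Kmt2a+/LSL against Kmt2a+/+ NPCs. Of the 100 genes with the smallest p-values there, 47 (47%, exact 95% interval 36.9 to 57.2, which treats genes as independent) had the same direction in restored against control NPCs, and of 500 such genes 228 (45.6%) did. Over all 15669 genes tested in both, the share was 41.8%, so the share in the 100 genes was near that of all genes. Of the 100, 9 had an unadjusted p under 0.05 in restored against control NPCs (background 2.29%), 6 of them with a mean under 50 counts. The 70 genes that were lower in Kmt2a+/LSL NPCs, with a median of -2.22 there, had a median of 0.39 here, and the 30 higher genes, with a median of 2.16 there, had 0.34 here. This share rested on 1 Kmt2a+/+ library. When each library without nestin-Cre was left out of the choice in turn, an alternative added after seeing the data, 77% of the 100 genes and 62.3% of all genes had the same direction without Kmt2a+/+ replicate 1. Without one of the other 5 libraries, the same direction was found for 33% to 50% of the 100 genes and 37.2% to 44.3% of all genes. Kmt2a+/+ replicate 1 thus decided whether the shared direction was more or less common than its opposite, in the 100 genes and over all genes alike.

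For Kmt2a+/LSL against Kmt2a+/+ NPCs, 63 of the genes that the study listed were used, of which 61 were in the table and 56 were tested. The list was chosen on the Kmt2a+/LSL and Kmt2a+/+ libraries of this series, so its direction there is not independent evidence. Of the 56, 37 lay above 0 and 19 below, with a median of 0.36, which was 0.14 without restored replicate 3 and 0.17 without restored replicate 1. Of these genes, 6 had an unadjusted p under 0.05, all higher (Uck2, Pcdh15, mt-Atp8, Fat1, Gm12439 and Gm11585, background 1.07%). Most of these were scarce or carried by 1 library. Fat1, an atypical cadherin, had 17.5, 0 and 6.66 against 1943, 0.897 and 0, and Uck2, a uridine kinase, 0, 0 and 11.4 against 0, 70.9 and 84.1. Among the 24 members with a mean of at least 50 counts, the median was 0.08. In the comparison with Kmt2a+/LSL and Kmt2a+/+ NPCs, 27 of 56 (48.2%) had the same direction in both, against 41.8% of all genes tested in both. This share used Kmt2a+/+ replicate 1, and the share without that library was not examined for this list.

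The difference between the LSL effect with and without nestin-Cre was tested over all 12 libraries. At an adjusted p under 0.05, 0 of 17076 genes were called (edgeR quasi-likelihood F-test), 295 (1.73%) had an unadjusted p under 0.05, and the DESeq2 Wald test called 14. For Kmt2a the LSL effect was 0.67 ± 0.18 log2 units (SE) higher with nestin-Cre than without, with an unadjusted p of 0.00263. For Grb10 it was 1.21 ± 0.23 higher, for Dmrt3 1.14 ± 0.32 higher and for Nek7 0.87 lower (-0.87 ± 0.27). None of these passed the adjusted threshold (adjusted p = 0.9999 in edgeR). For Ccnk the difference of the effects was 2.26 ± 0.75, for Celsr3 -1.34 ± 0.53 and for Grin3a 0.66 ± 0.29, each with an unadjusted p under 0.05 and an adjusted p of 0.9999.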

How the data were processed

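Poly(A) RNA of 12 cultures of mouse hippocampal NPCs, 3 of each of 4 genotypes, was sequenced. Reads were pseudo-aligned by the authors with kallisto (version 0.48.0 in the submitters' processing notes) and summed per gene with tximport and biomaRt on mm10 (GRCm38). The authors deposited estimated counts rounded to whole numbers, and these were used unchanged, although the test was planned for counts of reads.

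Libraries were grouped by their genotype labels. The 6 libraries with nestin-Cre were fitted with edgeR 4.0.16 (R 4.3.3; TMM scaling, quasi-likelihood F-test, Benjamini-Hochberg adjustment over all genes tested). A gene was tested if its counts summed to over 10 and it was above 0 in 2 or more of the libraries. Log2 fold changes were those of each fit. A prior count of 2 was used only for the log2 CPM behind the library correlations and deviations. DESeq2 1.42.0, limma-voom (limma 3.58.1), other filters, an offset for GC content (loess span 0.5), a replicate block and the loss of each library were the alternatives. The empirical null was fitted to the central 75% of DESeq2 z-scores. Exact permutation tests were two-sided. Scripts were tested on simulated data.

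The genotypes and gene lists were chosen with earlier results of these data known. Text names the 12 genes with the smallest p-values in each direction among genes with a mean of at least 50 counts, genes of interest for Kmt2a, and in each list the members with the smallest p-values or known defining markers. Shared sequence was counted as 31-base words of GENCODE M21 transcripts found in another gene. Neighbours lay within 2 Mb of Kmt2a. Some genes that met the naming rule are not reported here.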

Additional observations from a re-analysis of the deposited data

How the results depend on the processing

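Of the values that answer a comparison, 50 held under the alternatives and 5 moved. Between restored and control NPCs, the DESeq2 Wald test called 5 genes and the empirical null 27, and leaving out each library in turn gave 0 to 5 calls. The 5 came without restored replicate 2 (0.0315% of 15883 genes), with 1 higher and 4 lower (Ints9, Morc3, Rpl15-ps3, Gm12918 and Gm2000). The share of genes with the same direction without nestin-Cre was 77% without Kmt2a+/+ replicate 1. The DESeq2 Wald test called the difference of the LSL effects for 14 genes. Genes with an unadjusted p under 0.05 numbered 186 to 927 as each library was left out, 424 with the replicate block, which called 0 genes, and 190 with all 12 libraries. Same-numbered libraries correlated at 0.09, 0.03 and -0.02 and the other pairs at -0.09 to 0.07, so no pairing by replicate number was seen. With 3 libraries of each genotype, these correlations cannot show whether cultures shared a litter, which the labels do not give. The log2 fold changes of Dmrt3 and En2, both near 0, turned to 0.10 and 0.054 with the GC offset, and leaving out each library gave -0.16 to 0.056 for Dmrt3 and -0.28 to 0.17 for En2. For the other named genes and the 2 above, 1023 values kept their direction and side of the threshold and 18 passed the threshold under an alternative. Of the list medians, 519 held and 36 moved. The cause was not tested. Of the genes tested, 10835 had a 95% interval within 1 log2 unit on either side of 0, and 10611 of those had a mean of at least 50 counts, so the intervals of most scarcer genes also held larger differences.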
